A study of Mus musculus with 12 samples.

Results

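The genes of the central complement component C3, of the alternative pathway factors Cfb and Cfd, of the receptor C3ar1 and of the regulator Cd55 were compared between blood monocytes and Kupffer cells. These 5 of the 248 inflammation-related genes on the panel were chosen by name. C3 was much higher in Kupffer cells and Cfb moderately so, C3ar1 was lower, Cd55 was not distinguishable, and Cfd was not measured above the background in any sample. The study asked how the resident macrophages of the liver differ from monocytes of the blood.

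Complement is a cascade of plasma proteins, made largely by the liver, that marks and lyses microbes. All its pathways meet at C3, which convertases cleave into C3a, a soluble peptide that attracts and activates leukocytes, and C3b, which binds covalently to surfaces. In the alternative pathway C3b binds factor B (Cfb), factor D (Cfd, also known as adipsin) cleaves the bound factor B, and the resulting convertase cleaves more C3. C3ar1 is the G protein-coupled receptor of C3a, and Cd55, the decay-accelerating factor, is a membrane protein that takes convertases apart on the cells that carry it.

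The 12 samples were 6 of monocytes (MNCs) and 6 of Kupffer cells (KCs) from mice of the strain Balb/C, with no treatment given in the labels, each from pooled animals (5 by the labels, 4 to 5 by the methods) and each run in 1 lane with 100 ng of total RNA. Monocytes and Kupffer cells alike were enriched with magnetic beads that bind F4/80, a marker on the surface of mouse macrophages, after a collagenase digestion in the case of the livers. The values were normalized counts of colour-coded reporter molecules from the nCounter Mouse Inflammation V2 panel. Counted molecules per lane numbered 84681 to 145923 for Kupffer cells and 163118 to 350381 for monocytes. The background of a lane was the highest of its 8 negative controls.

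The named markers on the panel did not all follow the labels. Of 8 monocyte markers 4 were on the panel. Itgb2, Tyrobp and Ccr1 were lower in Kupffer cells (log2 fold change -1.73, -0.996 and -2.50), and Ccr2 was not called (-0.16). Of 9 Kupffer cell markers 3 were on the panel. Cd163, a scavenger receptor, was higher in Kupffer cells, and C1qa and C1qb, subunits of the complement protein C1q, were lower. Retnla, Alox15 and Tgfb2, 3 genes known from peritoneal macrophages, summed to 20099 to 31675 normalized counts in the monocyte samples and to 126 to 339 in Kupffer cells. 8 genes of proteins that hepatocytes secrete (C8a, C8b, C9, Hc, C6, Mbl2, Crp and Kng1) gave sums of 4024 to 14060 normalized counts in Kupffer cells and 44.6 to 216 in monocytes, where 6 of the 8 were above the background in no sample. 7 genes of T and NK cells (Cd4, Cd40lg, Ifng, Il2, Il17a, Il18rap and Ccl5) were on the panel. Their sums were 8488 to 34638 in Kupffer cells, where sample 1 stood highest, and 2895 to 5846 in monocytes. Ccl5 alone made up most of these sums, with 6978 to 33369 in Kupffer cells and 2311 to 4855 in monocytes. Of the 7 genes 5 were called higher in Kupffer cells, against 35.1% of all 248 genes, and Cd4 and Il2 were not called. The part of hepatocytes, T and NK cells or other macrophages in the results below was not tested, beyond the values given beside them.

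Promoter sequences are shown for C3, C3ar1 and Cd55, which were higher, lower and not distinguishable in Kupffer cells. They are the 250 bases before the start of the gene in RefSeq (GRCm38.p6), and 4 of the 5 genes, all but Cfb, had an entry. Capitals mark matches to 6 motifs, searched on both strands. They were the TATA box as TATAAA, the C/EBP motif as TTNNGNAA, the STAT motif as TTCNNNGAA, the AP-1 motif as TGACTCA, the GC box as GGGCGG, and the interferon response motif.
C3, chr17:57228137-57228386, minus strand: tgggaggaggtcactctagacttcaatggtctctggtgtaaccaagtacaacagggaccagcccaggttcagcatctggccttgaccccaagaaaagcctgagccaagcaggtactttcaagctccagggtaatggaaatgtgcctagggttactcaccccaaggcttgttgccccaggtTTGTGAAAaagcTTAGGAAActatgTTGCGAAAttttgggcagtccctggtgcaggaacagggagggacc
C3ar1, chr6:122856158-122856407, minus strand: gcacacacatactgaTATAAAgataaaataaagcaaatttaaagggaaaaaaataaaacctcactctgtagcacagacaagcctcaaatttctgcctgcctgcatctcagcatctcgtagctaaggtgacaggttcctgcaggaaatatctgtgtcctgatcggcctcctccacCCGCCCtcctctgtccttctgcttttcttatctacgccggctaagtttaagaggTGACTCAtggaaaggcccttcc
Cd55, chr1:130462745-130462994, minus strand: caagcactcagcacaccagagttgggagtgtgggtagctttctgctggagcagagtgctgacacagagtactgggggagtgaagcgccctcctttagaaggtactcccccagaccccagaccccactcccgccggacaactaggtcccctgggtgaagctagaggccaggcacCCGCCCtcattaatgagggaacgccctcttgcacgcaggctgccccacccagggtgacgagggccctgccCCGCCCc
The C3 promoter held the C/EBP motif at 3 places, from -70 to -38 relative to the start, and none of the other motifs. At least 1 such match stood in 36.9% of 32841 promoters of this length and at least 3 in 2.62%. That of C3ar1 held the AP-1 motif from -22 to -16, found in 4.46% of promoters, a GC box from -76 to -71 and a TATA box motif far upstream, from -235 to -230. That of Cd55 held 2 GC boxes, from -77 to -72 and from -7 to -2, and 32.7% of promoters held at least 1. The STAT and interferon response motifs, found in 7.02% and 2.98% of promoters, were not in these windows or in that of Cfd. Matches of letters are a description and do not show that a factor binds.

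C3 had 304, 366 and 521 normalized counts in the lowest, median and highest monocyte sample, and 10666, 17541 and 29658 in Kupffer cells. The lowest Kupffer cell sample thus lay far above the highest monocyte sample, and the cell types did not overlap. The Kupffer cell mean was 19074 ± 6827 and the monocyte mean 395 ± 89.5 (SD over 6 samples each). On the scale of log2(value + 1), C3 was 46.6-fold higher, or 5.54 ± 0.24 on the log2 scale (standard error, adjusted p = 2.70e-10 from limma). In a bulk sample, more cells that express a gene and more RNA per cell cannot be told apart. C3 was counted with 307 to 881 molecules per lane in monocytes and 7042 to 16232 in Kupffer cells, for which counting alone would give a coefficient of variation of 4.08% and 1.00%, against 22.7% and 35.8% observed between samples.

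Cfb, whose protein supplies the protease of the alternative convertase, ranged from 576 to 1162 normalized counts in monocytes (median 755) and from 1406 to 3159 in Kupffer cells (median 2342). The cell types again did not overlap, but the gap was narrow, between 1162 in monocyte sample 4 and 1406 in Kupffer cell sample 1. Cfb was 2.86-fold higher in Kupffer cells (log2 fold change 1.51, 95% confidence interval 1.05 to 1.98, adjusted p = 4.37e-05 from limma). By the gene order in GRCm38.p6, C2, which encodes the corresponding protease subunit of the classical pathway, is the protein-coding neighbour of Cfb. C2 was above the background in 2 of 6 monocyte samples and had 281 to 499 normalized counts in Kupffer cells. In the other monocyte samples it stood at the background, which therefore sets in part its log2 fold change of 4.10 (adjusted p = 2.07e-10 from limma).

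Cfd, the protease that activates factor B, gave no measurable signal. It was listed at the background count in 5 of 6 monocyte samples and in 6 of 6 Kupffer cell samples. In monocyte sample 2 it was listed at 5.63, which is 5 counted molecules multiplied by the factor of the lane and so equals the highest negative control there. The background on the normalized scale, 11.7 to 30.4 in Kupffer cells and 5.63 to 15.7 in monocytes, is the limit below which Cfd lay. The log2 fold change of -0.66 (adjusted p = 0.0823 from limma) compares only listed backgrounds, and it was 0.19 (adjusted p = 0.627) when every lane was given whichever background was higher, listed or multiplied. Without monocyte sample 2, whose background was the lowest, it was -0.95 (adjusted p = 0.000705), with all 11 samples listed at their background. No difference in Cfd could be detected at this depth.

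C3ar1, the receptor of C3a, went the opposite way to C3. It had 490, 640 and 1025 normalized counts in the lowest, median and highest monocyte sample, and 90.03, 128 and 177 in Kupffer cells. Each monocyte sample was above each Kupffer cell sample, 5.27-fold on the scale of log2(value + 1) (log2 fold change -2.40, 95% confidence interval -2.86 to -1.93, adjusted p = 5.14e-07 from limma). In Kupffer cells this rested on 57 to 97 counted molecules per lane, for which counting alone would give a coefficient of variation of 11.9%, against 22.7% observed.

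Cd55, the regulator, had 1000.3, 1489 and 1899 normalized counts in the lowest, median and highest monocyte sample, and 979, 2070.3 and 3046 in Kupffer cells. The cell types overlapped over the whole monocyte range, since Kupffer cell sample 4 lay below every monocyte sample while 3 Kupffer cell samples lay above all of them. The log2 fold change was 0.38 (95% confidence interval -0.21 to 0.97, adjusted p = 0.233 from limma). It lay between the SD over the monocyte samples, 0.34 on the log2 scale, and that over the Kupffer cell samples, 0.64. Cd55 was thus not called, and the interval leaves room for a near doubling. Cd55 has the protein-coding neighbour Cd55b, a closely related gene, and probe sequences that would tell their transcripts apart were not used here.

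**Figure D1:**
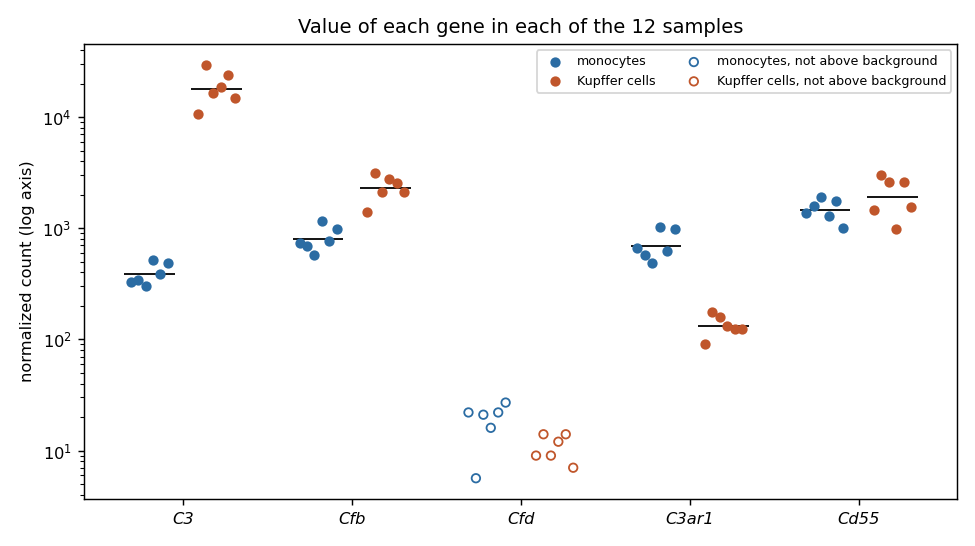
Normalized count (log axis) of C3, Cfb, Cfd, C3ar1 and Cd55 in each of the 6 monocyte and 6 Kupffer cell samples, with the geometric mean as a line and open circles for samples not above the background. The cell types are apart in C3, Cfb and C3ar1, they overlap in Cd55, from 979 to 3046 in Kupffer cells, and all 12 values of Cfd are open circles.

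3 of the 5 genes passed an adjusted p of 0.05 in limma, C3 and Cfb higher and C3ar1 lower in Kupffer cells. Over all 248 genes 56.5% were called, 35.1% higher and 21.4% lower, so a count of this size is near the background. In the same 3 genes the cell types did not overlap, which held for 41.5% of all genes, 25.8% with Kupffer cells above and 15.7% with monocytes above. In absolute log2 fold change, C3 ranked 6 of 248, C3ar1 31, Cfb 54 and Cd55 184, by the values as listed. Of the 15 other complement genes on the panel, 11 were called higher and 3 lower in Kupffer cells, and 1 was not called (C7, above the background in no monocyte sample and 3 of 6 Kupffer cell samples). The 11 were C1ra, C1s, C2, Masp1, Masp2, Mbl2, C6, C8a, C8b, C9 and Hc. Of these, Mbl2, C6, C8a, C8b, C9 and Hc are also among the hepatocyte genes above, so the 2 sets are not separate. C1qa and C1qb are also among the Kupffer cell markers. The median log2 fold change of the 15 was 4.44, against 0.05 over all genes, although in 11 of them some or all monocyte samples were at the background. With the 6 genes that no monocyte sample measured and every Kupffer cell sample did at their lower bound, the median was also 4.44. The bounds could not move it, since the median is the value of C6 and each of the 6 stayed on the same side of C6. C6 was not among the 6 and was above the background in 1 of 6 monocyte samples. The median is therefore itself set in part by the background. Cfb thus lay below 10 of the 11 that were higher, with only C1ra, a protease gene of the C1 complex, below it (0.94, adjusted p = 0.00337 from limma). The call of C1ra was lost after quantile normalization (0.48, adjusted p = 0.0961) and with samples scaled to Gapdh (0.20, adjusted p = 0.608) or Pgk1 alone (0.04, adjusted p = 0.909). C3ar1 had the lowest log2 fold change of all 20 complement genes, next to -2.17 for C1qa, -1.82 for C1qb and -1.61 for C4a, a gene of the C4 family whose near-identical copies may share signal. With samples scaled to Gusb alone, C1qb (-0.29, adjusted p = 0.213 from limma) and C4a (-0.08, adjusted p = 0.713) were not called and C7 was called higher (1.47, adjusted p = 0.000332).

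**Figure D2:**
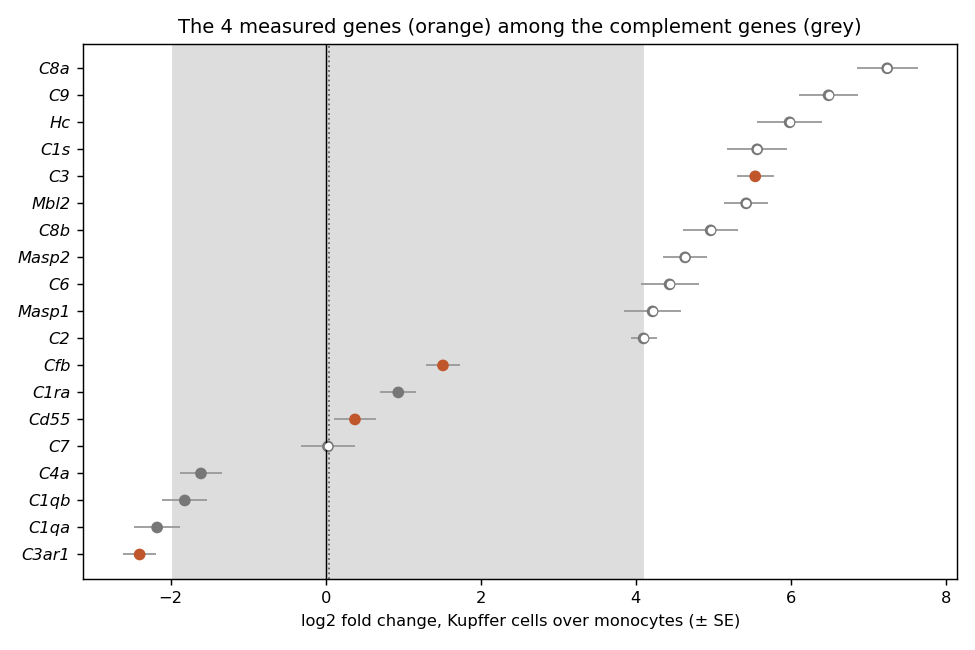
Log2 fold change (Kupffer cells over monocytes, ± standard error from limma, n = 6 samples each) of 19 complement genes without Cfd, with C3, Cfb, C3ar1 and Cd55 in orange, the other genes in grey, white centres where at least 1 monocyte sample was not above the background, and a grey band from the 5th to the 95th percentile of all 248 genes. C3 at 5.54 lies among the genes with white centres, Cfb at 1.51 and Cd55 at 0.38 lie inside the band, and C3ar1 at -2.40 lies at the low end.

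The ratio of a pair of genes within a sample does not depend on the factor of its lane, so its change between cell types is free of the scaling. Its level depends on the probes and was not interpreted. 6 ratios were tested with a two-sided exact permutation test, whose smallest p at 6 against 6 samples is 0.00216. The ratio of C3 to Cfb was 0.440 to 0.527 in monocytes (median 0.496) and 6.72 to 9.50 in Kupffer cells (median 7.67), without overlap. It was 16.3-fold higher in Kupffer cells, a log2 difference of 4.03 ± 0.10 (standard error, exact permutation p = 0.00216, adjusted over the 6 ratios p = 0.0026). C3 therefore rose more than Cfb, by an amount that varied little between samples.

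The ratio of C3 to its receptor C3ar1 went from 0.496 to 0.622 in monocytes to 103 to 195 in Kupffer cells, a 246-fold change (log2 difference 7.94 ± 0.16, exact permutation p = 0.00216, adjusted p = 0.0026). The ratio of Cfb to C3ar1 changed 15.1-fold in the same direction, and that of C3 to Cd55 35.8-fold, both with the same p and without overlap. C3ar1 fell against Cd55 by 2.78 on the log2 scale (exact permutation p = 0.00216, adjusted p = 0.0026). Only the ratio of Cfb to Cd55 overlapped between the cell types, from 0.303 to 0.989 in monocytes and from 0.807 to 2.83 in Kupffer cells, with a log2 difference of 1.14 ± 0.38 (exact permutation p = 0.0173, adjusted p = 0.0173).

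**Figure D3:**
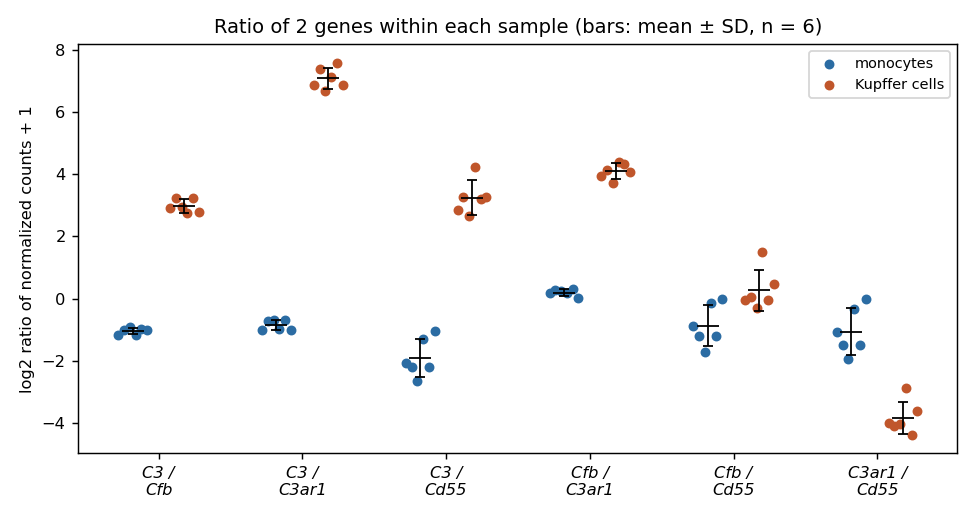
Log2 ratio of 2 genes within each sample for the 6 pairs of C3, Cfb, C3ar1 and Cd55, with points for the 6 monocyte (blue) and 6 Kupffer cell (orange) samples and bars for mean ± SD. The cell types are apart in 5 pairs and overlap in Cfb to Cd55, and the points lie closest together for C3 to Cfb, with an SD of 0.10 in monocytes and 0.21 in Kupffer cells.

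Within the monocyte samples C3, Cfb and C3ar1 rose and fell together. Samples 4 and 6 were the highest and sample 3 the lowest in all 3 genes. Across the 6 samples the log2 values of Cfb and C3ar1 had r = 0.98 (Spearman's rho 0.94, exact permutation p = 0.00278 and 0.0167), and r = 0.95 without the 2 samples farthest from the median of Cfb. For C3 and Cfb r was 0.97 (rho 0.94, exact permutation p = 0.00417 and 0.0167), and 0.80 without 2 samples. For C3 and C3ar1 r was 0.95 (rho 0.83, exact permutation p = 0.0125 and 0.0583), and 0.57 without 2 samples, so this relation rests largely on them. The promoter windows of C3 and C3ar1 printed above had no motif in common among the 6, while those of C3ar1 and Cd55 both held a GC box. Cfb had no promoter entry, and whether motifs bear on these correlations was not tested. Cd55 ran against C3ar1, with r = -0.88 (rho -0.89, exact permutation p = 0.0181 and 0.0333), and -0.79 without 2 samples. 12 such correlations were computed, 6 in each cell type, and the p-values of r adjusted over them were 0.025, 0.025, 0.0375 and 0.0433 in the order given. The other correlations of Cd55 in monocytes, with C3 and with Cfb, were -0.73 and -0.77, with adjusted p of 0.141 and 0.108 by the exact permutation test.

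In Kupffer cells C3 and Cfb again varied together (r = 0.92, rho 0.89, exact permutation p = 0.0125 and 0.0333, adjusted p = 0.0375), and r was 0.67 without the 2 samples farthest from the median of C3. Sample 2 was highest and sample 1 lowest in C3, Cfb and C3ar1. C3ar1 had r = 0.76 with C3 and 0.79 with Cfb (rho 0.60 for both, adjusted p = 0.108 by the exact permutation test), and both turned negative, -0.35 and -0.43, without 2 samples, so these relations rest on them. Cd55 had r of 0.57 with C3, 0.28 with Cfb and 0.57 with C3ar1, with adjusted p of 0.273, 0.628 and 0.273. Whether the correlations differ between the cell types was not tested. All samples share the panel and the way of scaling, and with each sample rescaled to its median gene C3 and Cfb had r of 0.98 in monocytes and 0.91 in Kupffer cells. Rescaled in this way, C3ar1 had r of 0.97 with C3 and 0.98 with Cfb in monocytes, and of 0.65 and 0.66 in Kupffer cells. For C3ar1 and Cd55 in monocytes it was -0.75. The rescaled correlations were not tested.

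**Figure D4:**
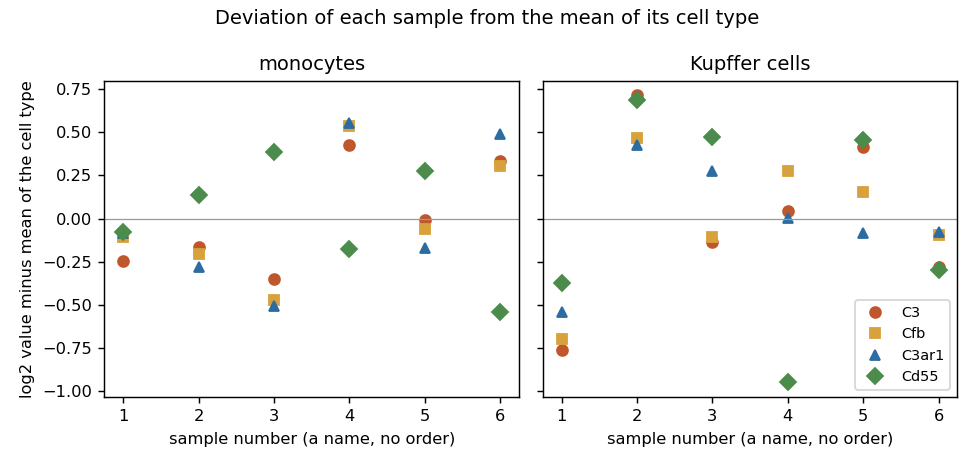
Deviation of the log2 value from the mean of the cell type for C3, Cfb, C3ar1 and Cd55 in the 6 monocyte and 6 Kupffer cell samples, with sample numbers that are names without order. In monocytes C3, Cfb and C3ar1 lie close together in each sample and Cd55 lies on the other side of 0 in samples 2 to 6, while in Kupffer cells sample 4 is lowest in Cd55 only.

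The amounts of other marker genes moved with these values. In Kupffer cells, C3 had r of 0.84 to 0.99 with each of the 8 hepatocyte genes (median 0.94, n = 6 samples), Cfb had a median of 0.95, C3ar1 of 0.75 and Cd55 of 0.37. The medians with all 181 genes measured in these 6 samples were 0.57 for C3, 0.49 for Cfb, 0.51 for C3ar1 and 0.28 for Cd55, and after rescaling to the median gene the values of C3 were 0.92 with the hepatocyte genes and 0.41 with all. With the 3 Kupffer cell markers in the same samples, C3 had r of 0.80 to 0.86 and Cfb of 0.91 to 0.92, with medians after rescaling of 0.72 and 0.79. The sum of the hepatocyte genes was lowest in sample 1 and highest in sample 2, as for C3. This order was not particular to them, since Cfb, C3ar1, C1qa, C1qb and the housekeeping gene Gusb shared it. In monocytes, Cd55 had r of 0.87 to 0.97 with 4 T and NK cell genes measured in all 6 samples and of -0.98 to -0.82 with Retnla, Alox15 and Tgfb2, while C3ar1 had -0.91 to -0.82 and 0.67 to 0.98. Their medians with all 165 genes measured in the monocyte samples were 0.54 for Cd55 and -0.60 for C3ar1. These relations were not particular to the genes of T and NK cells or of peritoneal macrophages. With 4 monocyte markers in the same samples, Cd55 had r of -0.97 to -0.75 and C3ar1 of 0.37 to 0.96. With the B cell gene Ltb, r was 0.91 for Cd55 and -0.94 for C3ar1. The part of hepatocytes, T and NK cells or other macrophages in the values of C3, Cfb, C3ar1 and Cd55 was not tested.

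Of 15 interferon response genes, 14 were called higher in Kupffer cells (median log2 fold change 1.38), against 35.1% of all genes (median 0.05). Between the Kupffer cell samples Cfb had a median r of -0.44 with the 15 genes (-0.91 to 0.63), against 0.49 with all 181 genes, and after rescaling to the median gene these values were -0.80 and 0.28. The other members had negative medians with the 15 genes as well, -0.48 for C3, -0.38 for C3ar1 and -0.49 for Cd55. After rescaling these were -0.69, -0.53 and -0.26, so the negative sign was not particular to Cfb. Between the monocyte samples the median r of Cfb was -0.55 with 13 of these genes and -0.59 with all 165 genes measured there. The part of interferon in the level of Cfb was not tested.

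The genes most like each member were taken by the correlation over 12 samples after the mean of each cell type was removed, among 159 other genes above the background in all 12 samples. For C3 they were Cfb (r = 0.92), C1qa (0.89) and C1qb (0.87), against a median of 0.24 over the genes compared. For Cfb they were C4a (0.94), C1qa (0.93) and C3 (0.92). C1qa, C1qb and C4a were lower in Kupffer cells, so they followed C3 and Cfb between samples of a cell type but not between cell types. For C3ar1 they were Cfb (0.88), Cxcl2, a neutrophil-attracting chemokine (0.86), and Tyrobp, a signalling adaptor of myeloid receptors (0.83). For Cd55 they were Grb2, a signalling adaptor (0.99), Ccr7, the lymphoid homing receptor (0.97), and Mef2c, a transcription factor (0.97). These correlations chose the genes and are a description.

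The scaling sets the size of the changes, since the housekeeping genes themselves differed. Gusb was 1.53 lower in Kupffer cells on the log2 scale, and Cltc, Gapdh and Pgk1 were higher by 0.31, 0.75 and 0.91. With each sample scaled to 1 of these genes, the log2 fold change of C3 was 4.63 to 7.07 and that of C3ar1 -3.30 to -0.87, each with an adjusted p under 0.05 from limma. Cfb ranged from 0.60 to 3.04. Its call was lost with Pgk1 alone (adjusted p = 0.098 from limma) and only just kept with Gapdh alone (0.77, adjusted p = 0.0486 from limma). Cd55 was higher with Gusb alone (1.91, adjusted p = 1.23e-05) and had a negative sign with Gapdh (-0.37, adjusted p = 0.392) and Pgk1 alone (-0.53, adjusted p = 0.197). The median of all genes moved with these scalings, from 1.55 with Gusb to -0.85 with Pgk1.

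**Figure D5:**
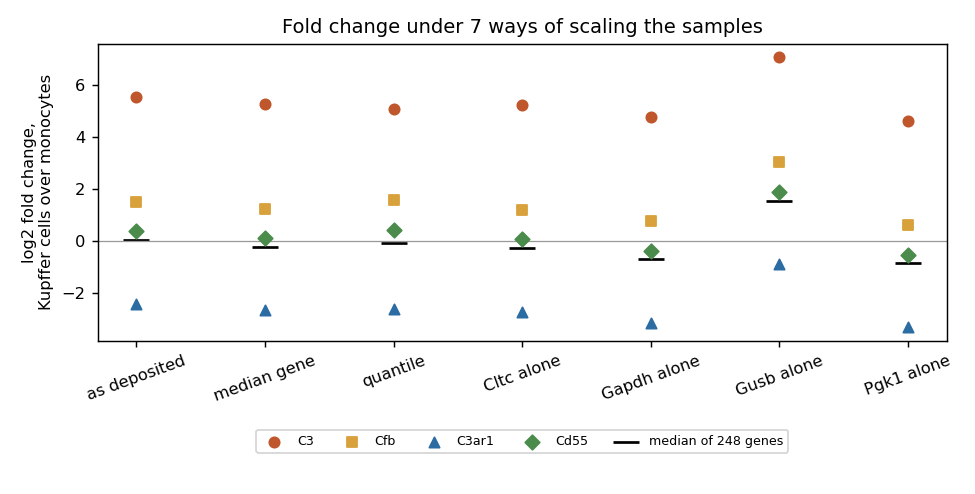
Log2 fold change (Kupffer cells over monocytes) of C3, Cfb, C3ar1 and Cd55 under 7 ways of scaling the samples, with black bars for the median of the 248 genes. C3 lies above 4 and C3ar1 below 0 in each. Scaling to 1 housekeeping gene moves all genes of a sample by the same factor. These genes and the median of all genes therefore shift together, Cd55 from 1.91 with Gusb alone to -0.53 with Pgk1 alone.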

How the data were processed

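Reporter molecules of 12 samples were counted on the nCounter Mouse Inflammation V2 panel. The deposited table holds 1 signal per gene and sample, for which the authors multiplied the counts of a lane in nSolver 4.0 by 1 factor from positive controls and housekeeping genes. Genes under the highest of 8 negative controls stand at that count, not multiplied. Each lane's factor was recovered as the step that makes the other values whole (within 0.02), and a gene was above the background where its counted molecules exceeded the highest negative control. Because of the background values no count model was used. Lanes held 84681 to 350381 counted molecules. Nothing says that the pools share no animals, so p-values measure the spread between these samples.

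limma 3.58.1 (R 4.3.3, 2 groups, two-sided) compared log2(value + 1) for 248 genes, with Benjamini-Hochberg adjustment over all of them and a threshold of 0.05. The added 1 understates fold changes of low genes. Ratios and correlations were tested by exact permutation (Python 3.11.15, numpy 2.4.6). The steps were tested on simulated data. Members and lists were chosen with earlier results of these data known. The genes named are the members, listed genes, and the 3 genes most like each member. Of 8 monocyte markers 4 were on the panel, with Itgb2, Tyrobp and Ccr1 lower in Kupffer cells and Ccr2 not called. Of the B cell, neutrophil and endothelial markers only Ltb, Cxcr2 and Flt1 were, of which Flt1 was called (higher, log2 fold change 2.09), and of the stellate cell and adipocyte markers none. Alternatives were another pseudocount, low genes left out, other scalings and backgrounds, a replicate block, other tests and each sample left out, and scaling to single housekeeping genes was chosen after seeing the data. RT-PCR, miRNA and protein measurements were not analysed here.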

Additional observations from a re-analysis of the deposited data

How the results depend on the processing

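The changes of C3 and C3ar1 kept their direction and their side of the threshold under all 25 alternatives, with log2 fold changes of 4.63 to 7.07 and -3.30 to -0.87. The change of Cfb did so under 24 of 25, the exception being scaling to Pgk1 alone (0.60). With Gapdh alone its call was only just kept (0.77, adjusted p = 0.0486 from limma). Each sample left out in turn gave 5.40 to 5.69 for C3, -2.50 to -2.29 for C3ar1, 1.42 to 1.65 for Cfb and 0.24 to 0.57 for Cd55. Cd55 was called with Gusb alone (1.91), and its sign turned with Gapdh (-0.37) and Pgk1 alone (-0.53). Cfd, at the background throughout, was called lower after rescaling to the median gene (-0.91), with Cltc (-0.95), Gapdh (-1.34) and Pgk1 alone (-1.50), had a positive sign with the higher background (0.19), and was called higher with Gusb alone (0.76). Without 1 sample it was -0.95 to -0.54. The 140 genes called became 232 with Gusb alone (219 higher and 13 lower) and 126 to 172 without 1 sample, where leaving out monocyte sample 2 raised those called lower from 53 to 86 (with 86 higher). The share called higher was 62.1%, against 38.6% after rescaling to the median gene, 47.7% after quantile normalization, and 36.4%, 21.3%, 94.4% and 16.9% with Cltc, Gapdh, Gusb and Pgk1 alone. Of the 15 other complement genes, 13 or 14 were called under each alternative, 11 higher and 3 lower except with quantile normalization, Gapdh or Pgk1 alone (10 and 3, C1ra lost) and Gusb alone (12 and 1, C1qb and C4a lost and C7 gained). The 6 ratios kept direction and call under all 14 alternatives each. Samples of the same number did not all deviate together (r from -0.23 to 0.40, with 2 of 6 monocyte samples closest to their own number). The labels do not say whether the numbers pair samples, and correlations between 2 cell types cannot settle it. With a replicate block, 132 genes were called (83 higher and 49 lower), and no member or ratio changed its call (C3 5.54, adjusted p = 2.03e-06 from limma). The filter on low values left Cfd without a value. Depth limits C3ar1 in Kupffer cells and all of Cfd.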
